A study of Mus musculus with 7 samples.

Results

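MHC class I molecules are built from a heavy chain, encoded by H2-K1, H2-D1 and related genes of the mouse H2 complex, and a shared light chain, beta2-microglobulin, encoded by B2m. Their levels were compared between Langerhans cells (LC), the dendritic cells of the epidermis, of naive and of irradiated mice. Genes were taken by name from the annotated array table: H2-K1, H2-D1, H2-Q4, H2-Q6, H2-Q7, H2-Q10, H2-T23, H2-T24 and B2m. Of these 9 names, 8 occurred among the 21755 gene symbols of the table, each with 1 probe set. The symbol H2-Q4 did not occur. A probe set labelled H2-gs10, which the RefSeq gene table lists as an older name of H2-Q4, is described beside the 8 and is not counted with them.

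All mice were adult, wild type and of strain C57:Bl6. The control group held 4 samples from naive mice, and the irradiated group held 3 samples from mice given 12 Gy of ionising radiation. LC were purified by flow cytometry, with more than 10000 cells pooled for each sample, and total RNA was hybridised to arrays. The labels state neither the time between irradiation and sorting nor the sex of the mice. Nor do they say whether replicates were separate pools of mice, so each p-value reflects variation among these samples that may be technical. Control replicates 1 and 4 each cite an earlier record, so those arrays were deposited before, and no irradiated sample does.

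Classical class I molecules (K and D) display peptides from proteins of the cell's own cytosol to CD8 T cells, and in dendritic cells they can also display peptides taken up from outside. Nonclassical molecules such as Qa-1, encoded by H2-T23, and Qa-2, encoded by H2-Q6, H2-Q7 and their neighbours, are less variable and engage receptors of natural killer cells and specialised T cells. Transcription of these genes is driven by NLRC5, by NF-kappaB at a promoter site called enhancer A, and by interferon regulatory factors at a site next to it.

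The promoters of these genes are shown because motifs of the kind these factors bind were searched for in them. RefSeq promoter windows (GRCm38.p6, 250 bases before to 50 after the start site) were found for 8 of the 9 names, all but H2-T24. H2-K1 had 2 windows, and the window with the higher start coordinate was used here and in the alignments. Capitals mark letters found on either strand: GGGGATTCC, the core of enhancer A; GAANNGAAA and GAAANNGAA, which interferon regulatory factors can bind; TGACG, the core of the CREB-type site; and CCAAT. No found motif overlapped another in these windows. The 49 bases around TTTCACTTC, the reverse complement of a GAANNGAAA match, were nearly alike in 6 genes of chromosome 17, given in the order chr17:34000419-34000467 (minus strand), then on the plus strand chr17:35262914-35262962, chr17:35379434-35379482, chr17:35424668-35424716, chr17:35439012-35439060 and chr17:35469904-35469952.
H2-K1: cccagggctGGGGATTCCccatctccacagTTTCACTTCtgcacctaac
H2-D1: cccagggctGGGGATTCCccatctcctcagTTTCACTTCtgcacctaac
H2-Q4: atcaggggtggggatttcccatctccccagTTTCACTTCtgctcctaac
H2-Q6: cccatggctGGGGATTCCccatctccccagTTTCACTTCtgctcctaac
H2-Q7: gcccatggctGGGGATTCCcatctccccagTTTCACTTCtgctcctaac
H2-Q10: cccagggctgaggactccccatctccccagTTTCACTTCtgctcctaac

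GGGGATTCC was present in H2-K1, H2-D1, H2-Q6 and H2-Q7 and in 0.25% of the 32851 RefSeq promoter windows. GAANNGAAA was present in all 6 genes above and in 7.52% of windows. Both together were found in 10 windows of 9 genes, 4 of which were these. TGACG was present in H2-K1, H2-D1, H2-Q4, H2-Q7 and B2m (20.8% of windows), and CCAAT in all but H2-Q10 (37.4% of windows). The promoters of B2m (chr2:122147437-122147736, plus strand) and H2-T23 (chr17:36032652-36032951, minus strand) held neither GGGGATTCC nor GAANNGAAA but held GAAANNGAA, as did 8.56% of windows. GAAANNGAA was added to the search after GAANNGAAA had not been found in these genes, and it and GGGGATTCC were shortened by 1 letter from forms searched earlier, so the matches are a description of these windows only.
B2m: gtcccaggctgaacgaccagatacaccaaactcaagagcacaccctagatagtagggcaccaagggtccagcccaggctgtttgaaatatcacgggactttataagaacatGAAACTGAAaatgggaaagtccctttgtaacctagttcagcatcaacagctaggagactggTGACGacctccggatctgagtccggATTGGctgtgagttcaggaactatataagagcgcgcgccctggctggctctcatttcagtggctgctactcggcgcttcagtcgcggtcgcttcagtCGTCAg
H2-T23: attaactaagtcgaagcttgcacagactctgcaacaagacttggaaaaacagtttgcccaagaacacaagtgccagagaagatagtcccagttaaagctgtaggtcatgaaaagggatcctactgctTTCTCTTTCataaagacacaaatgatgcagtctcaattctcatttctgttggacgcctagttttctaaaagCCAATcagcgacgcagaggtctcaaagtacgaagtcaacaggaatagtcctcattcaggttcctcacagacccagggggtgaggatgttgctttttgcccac

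The heavy-chain genes are close relatives. In local alignments of the promoter windows, H2-Q6 and H2-Q7 were identical at 97.3% of 261 aligned columns, and H2-K1 and H2-D1 at 90.4% of 228, while H2-K1 and H2-T23 reached 58.3% of 96. The probe sequences were not used here, so a probe set of one class I gene may also bind transcripts of its relatives, and single heavy chains are uncertain, above all H2-Q6 against H2-Q7 and H2-K1 against H2-D1. B2m has no such close relatives.

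The library labelled irradiated replicate 1 stood apart before any comparison. Over the 13053 tested genes its correlation with the other arrays was at most 0.728, while the others correlated with each other at 0.858 or more. Cd207, the gene of langerin that defines LC, was at 5.64 log2 in it, Ptprc, the gene of the leukocyte protein CD45, at 5.61, H2-Aa at 6.52 and Cd74 at 7.61. In the 4 controls Cd207 lay at 11.49, 10.96, 8.85 and 8.91, Ptprc between 9.21 and 10.41, H2-Aa between 12.98 and 13.10 and Cd74 between 13.16 and 13.42, and in irradiated replicates 2 and 3 Cd207 lay at 12.35 and 11.86. Its label as LC is therefore not borne out by these markers, and the tests are given with and without it. The X-inactivation RNA Xist was at 10.94 to 11.71 in controls and 5.31 to 5.93 in irradiated samples, so sex and irradiation cannot be told apart.

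With all 7 arrays, none of the 7 tested class I members passed the limma test over all genes (adjusted p under 0.05), where 1.56% of all tested genes were called lower and 0.115% higher. Unadjusted, 1 of the 7, B2m, had a p under 0.05. All 7 had lower means in irradiated LC (55.0% of all genes did), with a median log2 fold change of -0.62 against -0.05 for all tested genes. Without irradiated replicate 1, none passed either (3.06% of genes were then called lower and 1.58% higher), 6 of 7 means were lower (56.4% of all genes), and the median was -0.22 against -0.05.

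**Figure D1:**
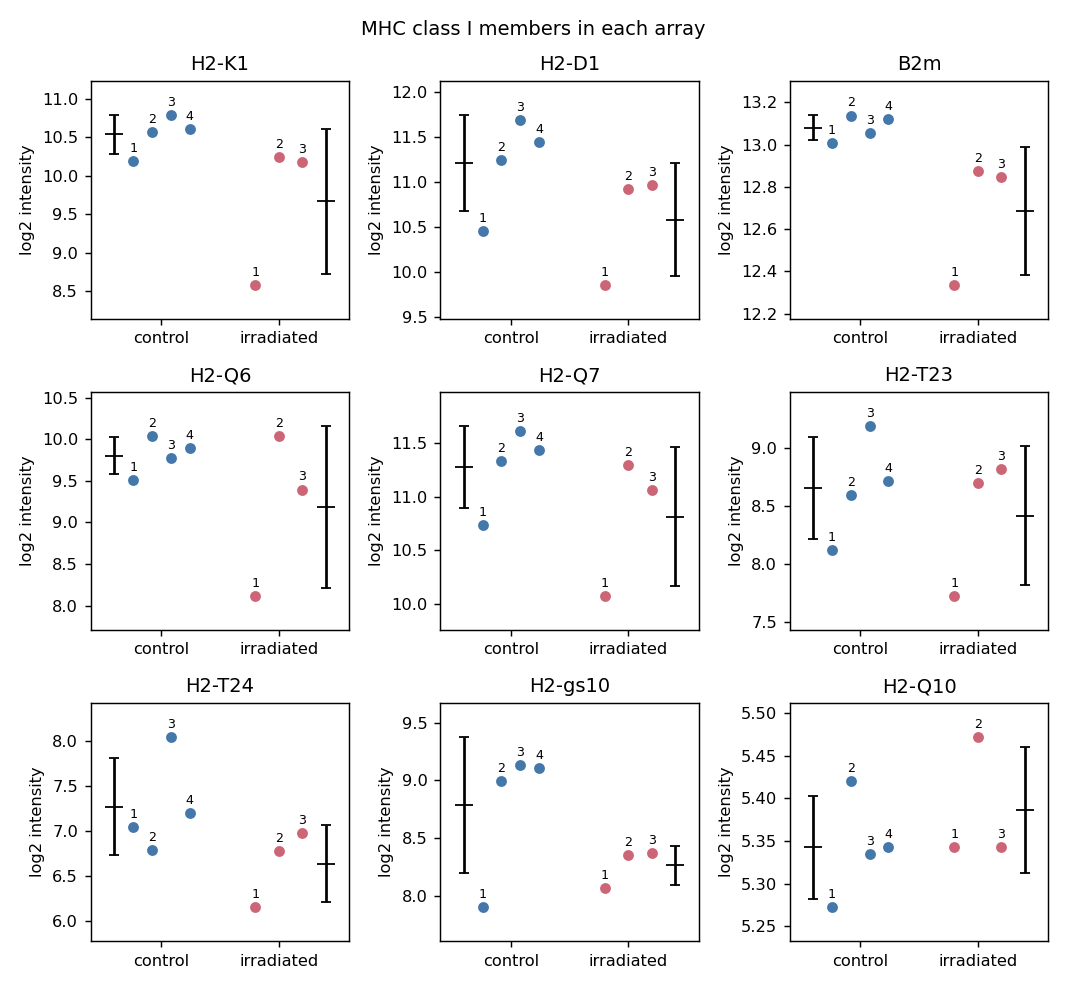
Log2 intensity of the 8 class I members and of H2-gs10 in each array, with the replicate number above each point and the mean ± SD of each group as a bar (control n = 4, irradiated n = 3). Irradiated replicate 1 was the lowest array for all genes plotted except H2-gs10 and H2-Q10, and the axis of each panel is scaled to its own gene and does not start at 0.

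H2-K1, the heavy chain of the K molecule, was at 10.19, 10.57, 10.79 and 10.61 log2 in control replicates 1 to 4 and at 8.58, 10.25 and 10.18 in irradiated replicates 1 to 3. Irradiated replicate 1 lay far below every other array, replicate 2 lay within the control range and replicate 3 lay just under the lowest control. The means were 10.54 ± 0.25 (SD, n = 4) and 9.67 ± 0.94 (SD, n = 3), a log2 fold change of -0.87 (SE 0.42, limma adjusted p = 0.303). Without irradiated replicate 1 the log2 fold change of H2-K1 was -0.33 (SE 0.21, limma adjusted p = 0.425).

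H2-D1, the heavy chain of the D molecule, was at 10.45, 11.25, 11.68 and 11.44 log2 in the controls and at 9.86, 10.92 and 10.96 in the irradiated samples. Control replicate 1 lay below irradiated replicates 2 and 3, so the groups overlapped. The log2 fold change was -0.63 (SE 0.39, limma adjusted p = 0.406), and -0.27 (SE 0.33, limma adjusted p = 0.718) without irradiated replicate 1. The controls alone spanned 1.23 log2, more than either difference.

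B2m, the light chain needed for class I molecules to reach the surface, was at 13.01, 13.14, 13.06 and 13.12 log2 in the controls and at 12.34, 12.87 and 12.85 in the irradiated samples. It was the 1 member of 7 whose groups did not overlap, where 15.3% of all tested genes had all irradiated samples below all controls. The controls were close together (13.08 ± 0.06, SD, n = 4), and the irradiated mean was 12.69 ± 0.30 (SD, n = 3). The log2 fold change was -0.39 (SE 0.15, 95% interval -0.75 to -0.04, limma adjusted p = 0.218). Leaving out 1 array at a time moved this count. It was 4 of 7 without control replicate 1 (B2m, H2-K1, H2-D1 and H2-Q7; 24.7% of all genes) and 3 of 7 without irradiated replicate 2 (B2m, H2-K1 and H2-Q6; 16.7%). It was 2 of 7, B2m and H2-T24, without control replicate 2 (16.5%) or irradiated replicate 3 (23.3%). Without irradiated replicate 1 the groups of B2m still did not overlap (as in 20.3% of all genes), and the log2 fold change was -0.22 (SE 0.09, 95% interval -0.44 to -0.0024, limma adjusted p = 0.226). B2m therefore did not pass in either comparison. Its irradiated mean was the lower in both, with a smaller difference without that library.

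**Figure D2:**
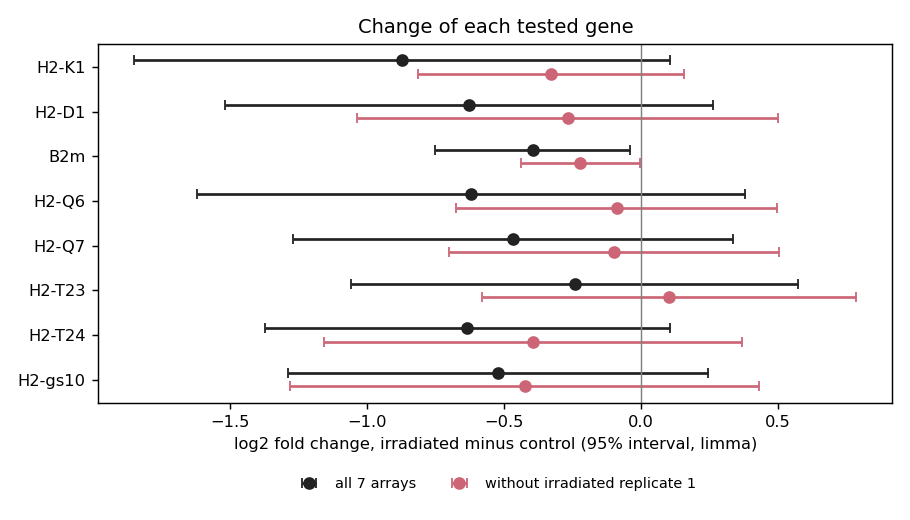
Log2 fold change (irradiated minus control) with its 95% interval from limma for the 7 tested members and H2-gs10, with all 7 arrays in black and without irradiated replicate 1 in red. The estimates without that library lie nearer to 0, from -0.42 to 0.10, and B2m has the narrowest intervals.

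The Qa-2 genes H2-Q6 and H2-Q7 followed H2-K1 and H2-D1 in their low values in irradiated replicate 1. H2-Q6 was at 9.51, 10.04, 9.77 and 9.89 log2 in the controls and at 8.12, 10.03 and 9.40 in the irradiated samples. H2-Q7 was at 10.73, 11.34, 11.62 and 11.44 in the controls and at 10.08, 11.30 and 11.07 in the irradiated samples. Irradiated replicate 2 lay inside the control range for both genes, and replicate 3 for H2-Q7 only. The log2 fold change of H2-Q6 was -0.62 (SE 0.43, limma adjusted p = 0.459) with all arrays and -0.09 (SE 0.25, limma adjusted p = 0.892) without irradiated replicate 1. That of H2-Q7 was -0.47 (SE 0.35, limma adjusted p = 0.481) and -0.10 (SE 0.26, limma adjusted p = 0.883). Without irradiated replicate 2 the values moved the other way, to -1.05 for H2-Q6 and -0.71 for H2-Q7 (limma adjusted p = 0.342 and 0.430). The 95% interval for H2-Q7 without irradiated replicate 1, -0.70 to 0.50, leaves room for a change of either sign.

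H2-T23, the heavy chain of Qa-1, which presents a peptide cut from the leaders of other class I molecules to NKG2A receptors, was at 8.12, 8.59, 9.18 and 8.72 log2 in the controls and at 7.72, 8.69 and 8.82 in the irradiated samples. Irradiated replicates 2 and 3 lay in the middle of the controls. The log2 fold change was -0.24 (SE 0.35, limma adjusted p = 0.718) with all arrays. It was 0.10 (SE 0.29, limma adjusted p = 0.890) without irradiated replicate 1, so its sign turned. Leaving out any other single array gave values from -0.063 (without control replicate 3) to -0.44 (without irradiated replicate 3).

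H2-T24, a further gene of the T region, was at 7.04, 6.79, 8.04 and 7.20 log2 in the controls and at 6.16, 6.78 and 6.98 in the irradiated samples. Control replicate 3 lay well above the other 6 arrays. The log2 fold change was -0.63 (SE 0.32, limma adjusted p = 0.319), and -0.39 (SE 0.33, limma adjusted p = 0.561) without irradiated replicate 1. Without control replicate 3 it was -0.38 (limma adjusted p = 0.551). The values of H2-T24 lie not far above 6.07 log2, the level below which genes were left out as dim.

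H2-Q10, which encodes a secreted class I molecule known as a liver product, lay between 5.27 and 5.47 log2 in all 7 arrays. It was below that level in every array and was not tested. H2-gs10, the row that RefSeq's synonym links to H2-Q4, was at 7.90, 8.99, 9.13 and 9.10 in the controls and at 8.07, 8.35 and 8.37 in the irradiated samples. Control replicate 1 lay below all irradiated samples, and the other 3 controls above them. Its log2 fold change was -0.52 (SE 0.33, limma adjusted p = 0.420), and -0.42 (SE 0.36, limma adjusted p = 0.579) without irradiated replicate 1. Without control replicate 1 it was -0.81 (limma adjusted p = 0.0820).

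The members shared features across arrays that the grouping does not describe. Irradiated replicate 1 was the lowest of the 7 arrays for all 7 tested members, as for 29.0% of all 13053 tested genes. Among the controls, replicate 1 was the lowest for 6 of the 7 (39.8% of all tested genes) and replicate 3 the highest for 5 (23%). Within the controls the members spanned from 0.13 log2 (B2m) to 1.25 (H2-T24), and for 4 of 7 members this span exceeded the difference between the group means. Without irradiated replicate 1 it did so for 6 of 7, all but B2m, and in 3 of 7 members both remaining irradiated samples lay inside the control range.

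The amounts by which members changed were compared within arrays, as the log2 level of each gene minus that of H2-K1, which asks whether changes differ and not whether levels do. H2-K1 had the most negative log2 fold change of these genes (-0.87) and fell the most in irradiated replicate 1 (-1.96). All 7 differences were therefore positive with all arrays, which reflects the choice of H2-K1 as reference. Of 7 such comparisons, 6 with members and 1 with H2-gs10, none passed after adjustment over the 7. H2-Q7 minus H2-K1 was 0.54, 0.77, 0.82 and 0.83 log2 in the controls and 1.49, 1.05 and 0.89 in the irradiated samples, so the highest control lay under each irradiated sample. The difference was 0.40 (two-sided exact permutation p = 0.0286, adjusted p = 0.2), and no lower p is possible with 35 splits. H2-T23 minus H2-K1 was -2.07, -1.98, -1.61 and -1.89 in the controls and -0.86, -1.55 and -1.36 in the irradiated samples, again with no overlap (difference 0.63, exact permutation p = 0.0571, adjusted p = 0.2). Without irradiated replicate 1 the differences were 0.23 and 0.43, with exact permutation p = 0.133 and 0.0667, where 0.0667 is the smallest that 15 splits allow. B2m minus H2-K1 differed by 0.48 (exact permutation p = 0.2, adjusted p = 0.467) and by 0.11 without that library (exact permutation p = 0.6).

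**Figure D3:**
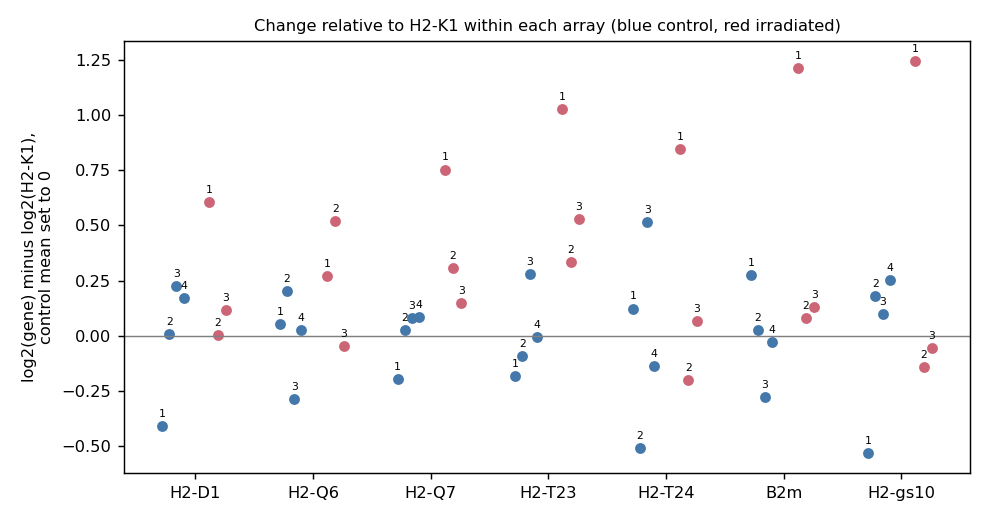
Log2 level of each gene minus that of H2-K1 in the same array, with the mean of the 4 controls set to 0 (blue control, red irradiated, replicate number above each point). The 3 irradiated points lie above all controls for H2-Q7 and H2-T23, with irradiated replicate 1 the highest in both, and the groups overlap for the other genes.

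The low class I levels of irradiated replicate 1 stood beside a larger loss of class II. Relative to the control means, the 7 tested members were lower in that array, with a median difference of -1.20 log2 and a range from -0.74 for B2m (1.67-fold) to -1.96 for H2-K1 (3.88-fold). Of the class II genes, which are expressed by professional antigen-presenting cells, H2-Aa was at 6.52 log2, H2-Ab1 at 6.61 and the invariant chain gene Cd74 at 7.61, against at least 12.98, 12.93 and 13.16 in the controls. The values of H2-Aa and H2-Ab1 lie near the dim end of the scale, so no fold is given. The median of 10 class II genes was -4.54 log2 in that array, and that of 12 LC markers -2.78. Class I, by contrast, is expressed by nearly all nucleated cells. With a single array there is no test of this difference. In bulk samples, fewer cells of a type and less RNA per cell cannot be told apart.

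Markers of other cells were high in the same array. The summed intensity of 7 fibroblast markers was 22750 there against 1600 to 7470 in the controls, that of 11 keratinocyte markers 17630 against 2674 to 11590, and that of 4 erythroid markers 20770 against 386.6 to 1053. Single genes lay above all controls for 7 of 7, 9 of 11 and 4 of 4 of these markers. The share of all tested genes outside the controls in a single array was not counted, so such marker counts are descriptive only. The 12 LC markers summed to 3531 against 16710 to 25810, with 12 of 12 below all controls. The 5 endothelial markers summed to 983.3 against 357.7 to 396.8, with 4 of 5 above all controls. The 7 T cell markers summed to 1012 against 560 to 604, with 4 of 7 above all controls and 1 below. Of this sum 591.8 was Thy1, a gene also expressed outside T cells (112.9 to 198.3 in the controls). Cd3e (109.9 against at most 101.5), Cd5 (99.53 against at most 89.95) and Cd3d (35.92 against at most 31.82) also lay above all controls. Cd3g (38.16) and Lck (80.81) lay within the controls and Cd2 (55.37) below them. The part of these cells in the class I values of that library was not tested. In irradiated replicates 2 and 3 the sums of the LC markers (23800 and 25670) and of the keratinocyte markers (7151 and 5607) lay within the control ranges. Single genes did not all do so. Of the 12 LC markers, 2 lay above and 3 below all controls in replicate 2, and 3 above and 2 below in replicate 3. Cd207 lay above and Itgax below (8.93 and 9.33 log2 against at least 10.17) in both. Of the 11 keratinocyte markers, 2 lay above and 1 below in replicate 2, and 1 above and 1 below in replicate 3. The T cell sum was 656.1 and 1301, both above the controls. Of the 7 genes, 2 lay above and 2 below all controls in replicate 2, and 4 above and 0 below in replicate 3. Cd3e, a gene of the T cell receptor complex, was at 158.1 and 419.6 against 71.79 to 101.5. The 2 below in replicate 2 were Cd2 (62.29 against at least 75.99) and Cd5 (77.93 against at least 85.93). The fibroblast sum was 4185 and 1052, the erythroid sum 1171 and 260.1 and the endothelial sum 407.6 and 345, with replicate 3 below the controls in all 3 lists and replicate 2 above them in the last 2. In replicate 2, 3 of 4 erythroid and 1 of 5 endothelial markers lay above all controls. The latter was Tek, too dim to test (50.53 against at most 39.47). In replicate 3, 6 of 7 fibroblast, 3 of 4 erythroid and 3 of 5 endothelial markers lay below all controls. The monocyte and macrophage sum lay at 1812, 5942 and 6017 in the 3 irradiated arrays, within the controls' 1310 to 11650. Lyz2 alone ran from 339.9 to 7065 in the controls. In irradiated replicate 1, Emr1 (74.64 against at least 396.5) and Cd14 (81.97 against at least 325.2) lay below all controls. Ly6c2 (1145 against at most 718.1) lay above them there, and Lyz2 and Fcgr1 lay within. Of the 5 genes, 0 lay outside the controls in replicate 2 and 1, below them, in replicate 3. In irradiated replicates 2 and 3 the median changes of the class I members were -0.21 and -0.25 log2, and those of class II -0.18 and 0.20.

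**Figure D4:**
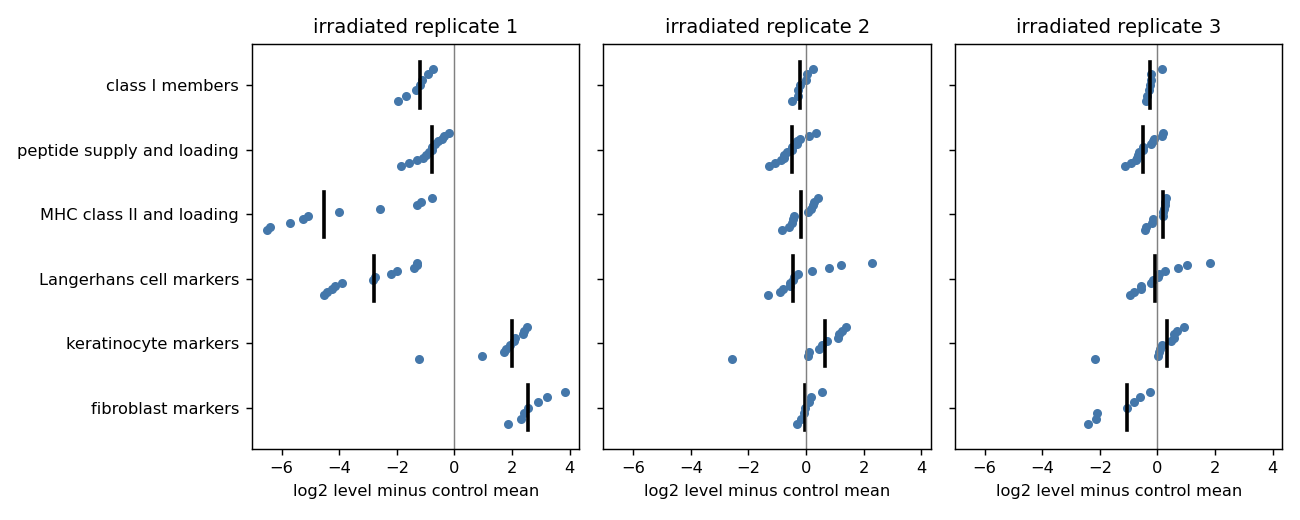
Log2 level of each tested gene minus its control mean in each irradiated array, by gene list, with the list median as a black bar. In irradiated replicate 1 the class I members lie between -1.96 and -0.74, class II and LC genes reach further down and keratinocyte and fibroblast markers lie mostly above 0, while in replicates 2 and 3 the class I members lie close to 0.

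Genes that feed peptides to class I molecules were described from a list of 13, all tested. With all arrays 1 of 13, Psmb8, fell, none rose and 12 did not pass (median -0.62). Of all tested genes 1.56% were then called lower and 0.115% higher. Psmb8, a catalytic subunit of the immunoproteasome, was at 7.76, 7.59, 7.70 and 7.71 log2 in the controls and at 5.84, 6.39 and 6.56 in the irradiated samples. It fell by 1.43 log2 (SE 0.18, limma adjusted p = 0.0154), and by 1.22 (limma adjusted p = 0.00959) without irradiated replicate 1. The call was lost under some alternatives, with limma adjusted p = 0.0653, 0.0568 and 0.0684 without control replicates 2, 3 and 4, and 0.0920 without irradiated replicate 2. It was also lost with the earlier record as a term (0.112), without both controls that cite one (0.179) and with the replicate number as a block (0.197), while the fold change stayed between -1.58 and -1.22 under these and the other alternatives. Without that library the list median was -0.56, whereas the class I members stood at -0.22. Again 1 of 13 was called lower and none higher, against 3.06% and 1.58% of all tested genes. In 6 of the 13 genes the groups did not overlap, both with and without that library, against 15.3% and 20.3% of all genes.

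Of 20 genes of class I transcription and interferon input, none passed with all arrays (median -0.10) or without irradiated replicate 1 (median 0.01). Among them the member with the highest mean, Ifngr2, a chain of the interferon-gamma receptor, had a log2 fold change of -0.39 (SE 0.52, limma adjusted p = 0.691), and 0.30 (SE 0.24, limma adjusted p = 0.557) without irradiated replicate 1. Nlrc5, the class I transactivator, chosen after its values were seen, was at 9.27, 9.41, 9.60 and 9.34 log2 in the controls and at 9.44, 9.54 and 9.22 in the irradiated samples. Its log2 fold change of -0.0058 had a 95% interval of -0.48 to 0.47 (limma adjusted p = 0.989), and it was -0.02 without irradiated replicate 1. These values are from the brightest of 19 probe sets of Nlrc5, and the mean of all 19 gave -0.75 (95% interval -1.34 to -0.16, limma adjusted p = 0.172), so the probe sets differ and no level of Nlrc5 as a whole is given.

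Of 24 other class I genes of the H2 complex, 21 were found and 9 tested, and with all arrays none passed (median -0.16). Without irradiated replicate 1, 1 of 9 rose (H2-K2) and none fell, where 1.58% of all tested genes were called higher and 3.06% lower. H2-K2, chosen after its values were seen and annotated by RefSeq as a transcribed pseudogene next to H2-K1, was at 7.70, 7.47, 7.71 and 7.22 log2 in the controls and at 6.26, 8.88 and 8.99 in the irradiated samples. Replicates 2 and 3 lay above all controls and replicate 1 below them, so the log2 fold change was 0.52 (limma adjusted p = 0.658) with all arrays and 1.41 (SE 0.19, limma adjusted p = 0.0152) without that library. Since H2-K2 and H2-K1 are related, the transcripts behind this signal are uncertain.

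H2-M2, the tested gene of this list with the highest mean, was at 11.57, 10.06, 9.15 and 8.95 log2 in the controls and at 5.66, 12.11 and 12.27 in the irradiated samples. Its high and low arrays were close to those of Cd207, at 11.49, 10.96, 8.85 and 8.91 and at 5.64, 12.35 and 11.86. Its log2 fold change was 0.08 (SE 1.57, limma adjusted p = 0.980) with all arrays and 2.26 (SE 0.68, limma adjusted p = 0.111) without irradiated replicate 1. H2-M3, which presents formylated peptides and was chosen after its values were seen, had a log2 fold change of -1.005 (SE 0.32, limma adjusted p = 0.157), and -0.63 (SE 0.24, limma adjusted p = 0.188) without that library. All its irradiated samples lay below all controls in both comparisons, as in 15.3% and 20.3% of all tested genes. In each comparison 2 of the 9 tested genes of this list did so. Control replicates 3 and 4 were thus low in H2-M2 and Cd207 but not in H2-K1, H2-D1 or H2-M3.

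**Figure D5:**
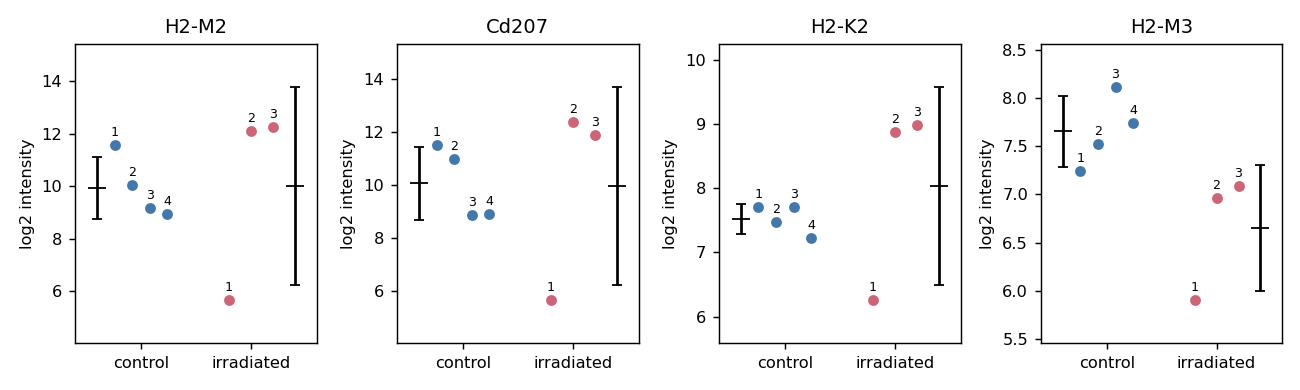
Log2 intensity of H2-M2, Cd207, H2-K2 and H2-M3 in each array, with replicate numbers and the mean ± SD of each group (control n = 4, irradiated n = 3), each panel on its own scale. H2-M2 and Cd207 are high in control replicate 1 and irradiated replicates 2 and 3 and low in irradiated replicate 1.

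Of 5 class I-like genes whose products pair with beta2-microglobulin (Cd1d1, Cd1d2, Mr1, Fcgrt and Hfe), 4 were tested and none passed with or without irradiated replicate 1. Their median log2 fold changes were 0.05 and -0.06. Fcgrt, the neonatal Fc receptor gene, was at 7.79, 8.10, 8.89 and 8.58 log2 in the controls and at 9.02, 8.45 and 8.80 in the irradiated samples (log2 fold change 0.42, SE 0.31, limma adjusted p = 0.476; 0.28, limma adjusted p = 0.695, without irradiated replicate 1). It was higher in irradiated replicate 1 than in any other array, unlike the class I members. Of 9 NKG2D ligand genes, whose products resemble class I but need no light chain, 2 were found and both were too dim to test. H60b lay between 5.74 and 6.49 log2 in the controls and at 5.02, 5.18 and 5.42 in the irradiated samples. All 10 tested class II genes had lower means with all arrays (median -1.58, none passed), and 5 of 10 had higher means without irradiated replicate 1 (median 0.03, none passed).

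The genes most like H2-K1 and B2m were found by the root mean square difference of their log2 levels, each centred on its own mean over the 7 arrays. For H2-K1 they were Arpc5 (0.09 log2), Rp2h, Adrbk1, Dock11 and Rgs10 (0.14). Arpc5, a subunit gene of the actin-branching Arp2/3 complex, was at 8.2 log2 in irradiated replicate 1 and at 9.68 and 9.59 in the other two, with control replicates 1, 2 and 4 at 9.67, 9.92 and 10.13 and replicate 3 above them (log2 fold change -0.87, limma adjusted p = 0.274). For B2m they included Mtmr4 (0.05 log2), C2cd3, Sec63 and Araf (0.07). These neighbours depend on irradiated replicate 1: without it, 0 of the 5 of either gene remained among the 5 nearest, and Arpc5 ranked 48 and Mtmr4 15. Among the members, H2-D1 and H2-Q7 were at 0.15 and H2-Q7 and H2-T23 at 0.18 with all arrays. With that array left out, H2-K1 and H2-Q7 were at 0.15 and H2-D1 and H2-Q7 at 0.16, so the order of the pairs is not settled. H2-Q6 and H2-Q7, the pair with the closest promoters, differed by 0.27.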

How the data were processed

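Each deposited table holds 1 linear intensity for every probe set and array. The submitters' processing notes name RMA (robust multi-array averaging) as the method the authors used. The sources used here give no array design or genome build, nor the set of arrays that was normalised jointly. Both deposited tables held equal values (174454 of 174454 within 1e-09). Median intensity per array was 80.2 to 88.2, and the number of arrays, 7, limits the precision.

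Intensities were converted to log2, the probe set with the highest mean was kept per symbol, and the lowest 40% of symbols (below 6.07 log2, an intensity of 67.3) were left out, which left 13053 genes. The group contrast came from limma 3.58.1 (R 4.3.3; lmFit, then eBayes with a mean-variance trend). P-values were adjusted by Benjamini-Hochberg across the tested genes, with 0.05 as the threshold. Differences between members used a two-sided exact permutation test over 35 splits in Python 3.11.15. Both tests were checked on simulated data of independent normal values. These held no outlying array, so the checks do not cover a library like irradiated replicate 1. Promoters were aligned with Biopython 1.88. Alternatives covered the filter, variance model, array weights, scaling, offset, probe sets, replicate block, earlier records and each array left out.

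Members and lists were chosen with earlier results of these data known. Named genes were the members, up to 3 called genes of each list or else its highest by mean, the 5 most alike genes of H2-K1 and B2m, and Cd207, Ptprc, H2-Aa and Cd74. Unnamed gene models were left out of the likeness search. Some genes that this rule or the lists would name are not reported here.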

Additional observations from a re-analysis of the deposited data

Results flagged for a closer look

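H2-gs10 in control replicate 1 was at 7.90 log2, far from the 8.99 to 9.13 of the other 3 controls. The gap to the nearest control took up more of the range of the 4 controls than Dixon's 95% critical value allows. Chance flags about 1 in 20 such groups, and 9 genes were examined.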

How the results depend on the processing

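No class I member was called under any of the 20 alternatives, and all members kept their direction except H2-T23, whose log2 fold change ran from -0.48 to 0.10 over all settings, from -0.44 without irradiated replicate 3 to 0.10 without irradiated replicate 1. H2-gs10 passed only with array weights (-0.64, adjusted p = 0.0468). Over all alternatives the adjusted p of B2m ranged from 0.0647 to 0.457 and that of H2-K1 from 0.158 to 0.538. Relative to H2-K1, the differences of H2-T24 and H2-gs10 turned to -0.066 and -0.098 without irradiated replicate 1, where leaving out other arrays gave up to 0.46 and 0.60. The counts over all genes, 15 higher and 204 lower, were less stable. They were 831 and 2645 with array weights, 0 and 0 with the replicate block, 0 and 1 against the controls that cite no earlier record, 0 and 1 with the earlier record as a term, and 130 lower without a filter. With control replicates 1 and 4 left out together, the 7 members had a median of -0.72 and none was called. Leaving out each array in turn gave 0 to 206 higher and 2 to 399 lower, and only the counts without control replicate 1 (15 and 289) stayed within 1.5 times. The cause was not tested. Same-numbered samples did not deviate together (correlations 0.02, -0.05 and 0.17), so the numbers are not taken as pairs; under the block 2049 genes had an unadjusted p under 0.05. With 4 and 3 arrays the interval of H2-K1 spans -1.85 to 0.11, so changes of this size cannot be separated from none. Using every probe set of a member changed nothing, since each has 1.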
